A study of Mus musculus with 12 samples.

Results

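Messenger RNAs of 8 serine/threonine kinase genes were followed in EL-4, a line grown from a mouse T lymphoma. The genes are Pim1, Pim2 and Pim3, the Polo-like kinases Plk2 and Plk3, the salt-inducible kinase Sik1, the serum- and glucocorticoid-regulated kinase Sgk1, and Map3k8, a MAP kinase kinase kinase. They were chosen by name, as kinases whose mRNA is known to be inducible, with earlier results of these data known. They are 8 of the 19938 genes that had a probe set with 1 gene symbol. Each of the 8 genes had 1 such probe set. The values are log2 robust multichip average (RMA) values from Affymetrix Mouse Gene 1.0ST arrays.

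All cells were of the EL-4 line and were pretreated for 30 min, with DMSO alone or with cycloheximide (CHX), a blocker of protein synthesis, at 10 μg/ml in DMSO. They were then stimulated for 0 h (unstimulated) or 4 h with P/I, that is, the phorbol ester PMA at 10 ng/ml and the calcium ionophore ionomycin at 1 μM, which together bypass the T cell receptor. This gave 4 groups of 3 biological replicates, 12 arrays in all, and 3 arrays per group set a limit to how exact each value can be. The CHX arms address whether an mRNA rises with P/I when new protein cannot be made. The sources do not state how long the unstimulated CHX-treated cells were in CHX beyond the pretreatment. P/I and a longer time in CHX thus cannot be told apart in the comparison of CHX-treated cells or in the interaction of P/I and CHX. The CHX effects with and without P/I may likewise differ by the time in CHX. EL-4 is a transformed line, and in bulk RNA a change in every cell and a change in a share of the cells cannot be told apart.

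Within a group, the correlation of arrays over all probe sets was between 0.983 and 0.994, and no array stood apart. The mean level of 9 T cell markers was between log2 9.98 and 10.29 on every array. That of 6 B cell markers was between 5.01 and 5.32, and that of 7 myeloid markers between 4.70 and 4.85. These means hold single markers that changed with P/I in DMSO-treated cells. Zap70 and Lat rose by 1.18 and by 0.52 on the log2 scale, Cd3g fell by 0.50 and Cd3e by 0.34, and the B cell marker Cd79b, at a mean of log2 7.44 in unstimulated cells, fell by 0.94, with Cd22 at -0.32. The part of such markers in the kinase results was not tested.

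Pim kinases are constitutively active, so the amount of the protein largely sets their activity, and cytokine signals through Jak and Stat proteins raise their transcription in lymphocytes. Plk2 and Plk3 are Polo-like kinases linked to stress and growth factor responses rather than to mitosis alone. Sik1 is an AMPK-related kinase that keeps CREB coactivators (Crtc proteins) and class IIa histone deacetylases in the cytoplasm. Sgk1 is an AGC kinase that mTORC2 and Pdpk1 activate, and Map3k8 (Tpl2, Cot) activates the ERK pathway through Map2k1 and Map2k2. The arrays measured their mRNA, not the activity of the kinases.

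The stretches of 250 bases before the start sites of Plk2, Plk3 and Pim3 are shown as those of genes whose calls differed. Plk3, a close relative of Plk2, and Pim3 were called with P/I in both arms, and Plk2 was not called. The Plk2 group means were log2 4.82 to 4.89, under the lowest array median of 5.55. Whether the Plk2 signal was above background was not tested, so its lack of a call is not shown to be a lack of response. They are RefSeq sequences of build GRCm38.p6, printed in the direction of transcription, with capitals for motif matches on either strand. Plk2 lies at chr13:110394794-110395043 on the plus strand, Plk3 at chr4:117133964-117134213 on the minus strand, and Pim3 at chr15:88861944-88862193 on the plus strand.
Plk2: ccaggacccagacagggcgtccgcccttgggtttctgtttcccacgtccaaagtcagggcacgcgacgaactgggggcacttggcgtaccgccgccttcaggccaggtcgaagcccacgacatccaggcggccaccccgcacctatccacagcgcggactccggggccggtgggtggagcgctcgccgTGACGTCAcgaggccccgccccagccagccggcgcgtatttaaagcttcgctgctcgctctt
Plk3: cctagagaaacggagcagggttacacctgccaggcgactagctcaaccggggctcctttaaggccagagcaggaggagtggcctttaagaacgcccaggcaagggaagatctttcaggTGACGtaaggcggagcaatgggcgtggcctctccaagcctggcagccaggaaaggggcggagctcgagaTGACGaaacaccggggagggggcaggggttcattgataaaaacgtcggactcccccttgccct
Pim3: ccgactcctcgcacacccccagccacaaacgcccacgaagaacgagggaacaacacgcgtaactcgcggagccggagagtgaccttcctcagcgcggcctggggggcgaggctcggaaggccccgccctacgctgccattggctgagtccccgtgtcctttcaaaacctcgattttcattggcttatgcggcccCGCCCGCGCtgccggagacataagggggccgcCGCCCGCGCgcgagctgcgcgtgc
The Plk2 stretch held 1 match to the full cyclic AMP response element TGACGTCA, the sequence that CREB and related factors bind, from -62 to -55 relative to the start site. This element was in 1.55% of the 32851 promoters searched over the same length. The Plk3 stretch held 2 matches to its 5-base core TGACG, at -132 to -128 and at -63 to -59, a core that overlaps the full element and was in 17.8% of promoters. The Pim3 stretch held 2 matches to GCGNGGGCG, the sequence that Egr factors bind, at -56 to -48 and at -24 to -16, and 4.7% of promoters held at least 1. The Pim2 stretch held no match to the 8 motifs searched. Among the RefSeq promoters, 1 of 2 Pim1 start sites had a match, to the NFAT motif. For Sgk1, 3 of 6 start sites had at least 1, to the GAS motif, the NFAT motif or the core TGACG. The share of all promoters with a match to any of the 8 motifs was not computed, so these counts cannot be set beside it. The promoters of Sik1 and Map3k8 were not analysed here. The other motifs were AP-1 (TGANTCA, in 6.75% of promoters), kappaB (3.9%), GAS (TTCNNNGAA, 7.02%), CArG (1.47%) and NFAT (TGGAAA, 18.6%). A match is a run of letters and was not tested as a bound site.

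P/I raised 6 of the 8 kinase mRNAs at 4 h in DMSO-treated cells and lowered 0, at an adjusted p under 0.1 in limma. Over all 23410 probe sets tested, 9.05% were called higher and 8.42% lower. The median of the 8 log2 fold changes was 0.85, beside -0.03 over all probe sets tested. The 8 were chosen as known inducible kinases with earlier results of these data known, so these contrasts describe them and do not test them. Map3k8 rose most, 16.2-fold, followed by Plk3, 7.39-fold. Pim1, Pim3, Sgk1 and Pim2 rose between 1.47-fold and 2.06-fold, while Plk2 and Sik1 were not called. In either arm, limma's unadjusted p was under 0.05 for 0 of the 8 in the lower direction, and the unmoderated test of the methods called 0 lower. The limma fit used all 12 arrays with 1 mean per group, and each p was adjusted by Benjamini-Hochberg over the probe sets tested.

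**Figure D1:**
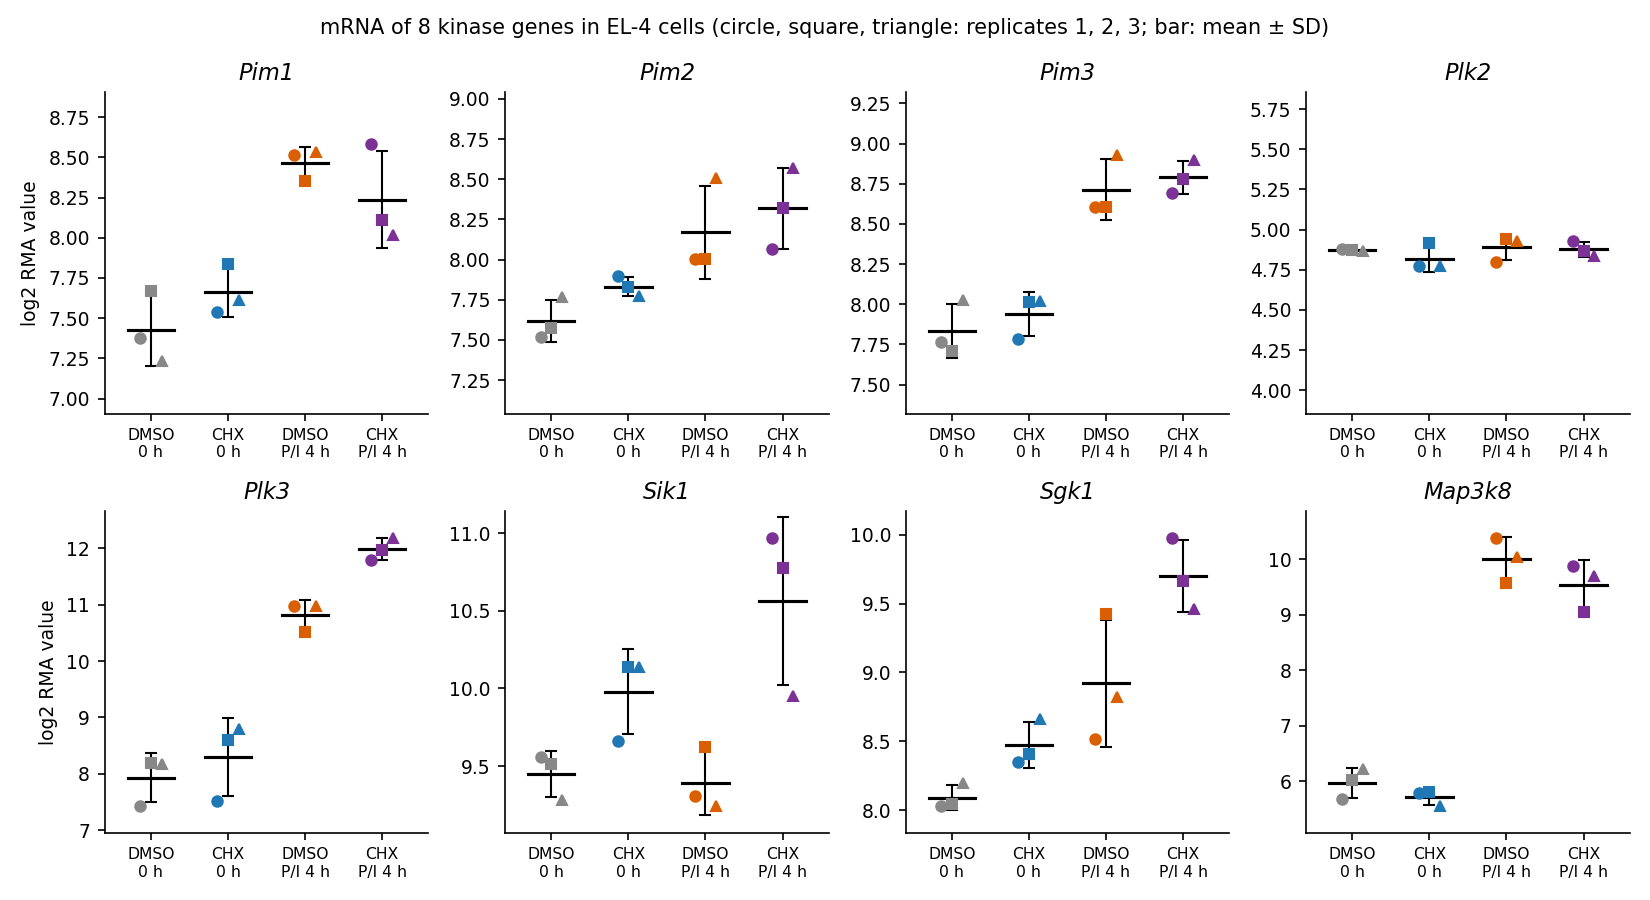
Log2 RMA value of each of the 8 kinase mRNAs (vertical axis) in the 4 groups (horizontal axis), with 1 symbol per replicate and a bar for the mean ± SD, n = 3. Map3k8 and Plk3 show the widest separation between unstimulated and P/I-stimulated cells, and the Plk2 values lie between 4.77 and 4.94 on all arrays.

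Map3k8, the kinase that links Toll-like receptor and TNF signals to ERK, had log2 values of 5.69, 6.02 and 6.21 in unstimulated DMSO-treated cells and of 10.38, 9.57 and 10.04 after P/I. All 3 stimulated arrays were above all 3 unstimulated arrays, by more than 3 log2 units. The log2 fold change was 4.02 (SE 0.24), with an adjusted p of 6.81e-07 in limma. In CHX-treated cells the values were 5.79, 5.81 and 5.56 before P/I and 9.88, 9.04 and 9.70 after it. The groups were again far apart, and the log2 fold change was 3.82 (14.1-fold, adjusted p = 1.13e-06 in limma). In P/I-stimulated cells the CHX-treated values overlapped those of DMSO-treated cells. That difference was -0.46 on the log2 scale (95% interval -0.97 to 0.06, adjusted p = 0.235), so neither a lower level with CHX nor an equal one was shown. Without P/I-stimulated DMSO-treated replicate 2, the lowest of its group, it was -0.67 with an adjusted p of 0.0730, and without P/I-stimulated CHX-treated replicate 2 it was -0.21 (adjusted p = 0.681).

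Plk3, a Polo-like kinase of the stress response, had log2 values of 7.43, 8.20 and 8.17 in unstimulated DMSO-treated cells and of 10.97, 10.51 and 10.98 after P/I. The groups were separated by more than 2 log2 units, although unstimulated replicate 1 lay below the other 2. The log2 fold change was 2.89 (SE 0.30, adjusted p = 5.65e-05 in limma). With CHX the values were 7.52, 8.60 and 8.80 in unstimulated cells and 11.79, 11.97 and 12.18 with P/I. Here too replicate 1 was the lowest unstimulated array, and the stimulated arrays were the highest for this gene in the data. The log2 fold change with P/I in CHX-treated cells was 3.68, which is 12.8-fold (adjusted p = 9.46e-06 in limma).

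CHX added to the P/I level of Plk3. Every P/I-stimulated array with CHX was above every P/I-stimulated array without it, with a log2 difference of 1.16 (SE 0.30, 2.24-fold, adjusted p = 0.0164 in limma). From unstimulated DMSO-treated cells to P/I-stimulated CHX-treated cells, Plk3 rose 16.6-fold (adjusted p = 3.63e-06 in limma). The CHX effect during P/I did not pass the threshold without the 4 arrays of replicate 2 (1.02, adjusted p = 0.205) or of replicate 3 (1.14, adjusted p = 0.141).

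Plk2, the close relative of Plk3, was not called in any comparison of the 4 groups. Its log2 values were 4.88, 4.87 and 4.87 in unstimulated DMSO-treated cells and 4.80, 4.94 and 4.93 after P/I. With CHX they were 4.77, 4.91 and 4.77 in unstimulated cells and 4.93, 4.87 and 4.84 with P/I. The 4 groups overlapped, and the P/I effect was 0.01 on the log2 scale (95% interval -0.15 to 0.18, adjusted p = 0.942 in limma). The array medians over all probe sets were log2 5.55 to 5.71, and the mean level of the 7 myeloid markers was between 4.70 and 4.85. Whether the Plk2 signal was above background was not tested, so a lack of response cannot be told from a lack of signal.

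Among the Pim genes, Pim1 is best known as a site of retroviral insertion in mouse lymphoma. It had log2 values of 7.38, 7.67 and 7.23 in unstimulated DMSO-treated cells and of 8.51, 8.35 and 8.53 after P/I. The groups did not overlap, and Pim1 rose by 1.04 (SE 0.15, 2.06-fold, adjusted p = 0.000684 in limma). With CHX the values were 7.54, 7.83 and 7.61 in unstimulated cells and 8.58, 8.11 and 8.02 with P/I. These groups did not overlap either, but the stimulated arrays were more spread, with replicate 1 the highest. Pim1 rose by 0.58 in CHX-treated cells (1.49-fold, adjusted p = 0.0222 in limma). That call was lost without the arrays of replicate 1 (0.34, adjusted p = 0.129) or of replicate 3 (0.66, adjusted p = 0.117).

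In P/I-stimulated cells the Pim1 difference of CHX from DMSO was -0.23 on the log2 scale, with overlapping groups (95% interval -0.57 to 0.11, adjusted p = 0.393 in limma). Without the P/I-stimulated CHX-treated replicate 1 the difference was -0.40, with an adjusted p of 0.0611. It was -0.38 without all arrays of replicate 1 (adjusted p = 0.0814), but -0.0887 without all arrays of replicate 3 (adjusted p = 0.890).

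Pim3 had log2 values of 7.77, 7.71 and 8.03 in unstimulated DMSO-treated cells and of 8.61, 8.60 and 8.93 after P/I. With CHX they were 7.78, 8.01 and 8.02 in unstimulated cells and 8.70, 8.78 and 8.89 with P/I. Stimulated arrays were above unstimulated ones in both arms, and the arms lay close together. Pim3 rose by 0.88 without CHX (1.84-fold, adjusted p = 0.000362) and by 0.85 with it (1.80-fold, adjusted p = 0.000433 in limma). The interval of the CHX difference in P/I-stimulated cells ran from -0.18 to 0.34 on the log2 scale.

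Pim2, the X-linked member of the family, had log2 values of 7.52, 7.57 and 7.77 in unstimulated DMSO-treated cells and of 8.006, 8.003 and 8.51 after P/I. The groups did not overlap, but replicate 3 of the stimulated cells was well above the other 2. Pim2 rose by 0.55 (1.47-fold, adjusted p = 0.0295 in limma), the smallest of the 6 called changes. It did not pass without that array (0.39, adjusted p = 0.115) or without the arrays of replicate 2 (0.61, adjusted p = 0.200). With CHX the values were 7.89, 7.83 and 7.77 in unstimulated cells and 8.07, 8.32 and 8.57 with P/I. Pim2 rose by 0.49 (1.40-fold, adjusted p = 0.0460 in limma), but adjusted p = 0.101 in the unmoderated test. Leaving out replicate 2 or 3 of either CHX-treated group, or all arrays of replicate 2 or of replicate 3, also ended this call, with differences of 0.33 to 0.49.

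Sgk1, a regulator of ion channels and, in T cells, of helper cell differentiation, had log2 values of 8.03, 8.05 and 8.19 in unstimulated DMSO-treated cells. After P/I they were 8.52, 9.42 and 8.82. All stimulated arrays were above the unstimulated ones, with replicate 2 the highest. Sgk1 rose by 0.83 (SE 0.20, 1.78-fold, adjusted p = 0.0148 in limma). That call was lost without the arrays of replicate 2 (0.56, adjusted p = 0.210) or of replicate 3 (0.93, adjusted p = 0.127). With CHX the values were 8.35, 8.41 and 8.66 in unstimulated cells and 9.98, 9.67 and 9.46 with P/I. Every P/I-stimulated CHX-treated array was above every other array, and Sgk1 rose by 1.23 in the CHX arm (2.34-fold, adjusted p = 0.00111 in limma).

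The Sgk1 level in P/I-stimulated cells was also higher with CHX than without, by 0.78 (SE 0.20, 1.72-fold, adjusted p = 0.0147 in limma). The difference was 0.44 without the arrays of replicate 1 (adjusted p = 0.0961), and 0.85 without those of replicate 3, where the call was lost (adjusted p = 0.120).

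Sik1 was not called with P/I alone, but was called with CHX during P/I. Its log2 values were 9.56, 9.51 and 9.28 in unstimulated DMSO-treated cells and 9.31, 9.63 and 9.24 after P/I. The groups overlapped throughout, and the difference was -0.06 (95% interval -0.56 to 0.44, adjusted p = 0.922 in limma). With CHX the values were 9.67, 10.14 and 10.14 in unstimulated cells and 10.97, 10.78 and 9.95 with P/I. The 3 CHX-treated, P/I-stimulated arrays were above all DMSO-treated arrays, but replicate 3 lay within the range of the unstimulated CHX-treated cells. Sik1 rose by 1.17 with CHX in P/I-stimulated cells (SE 0.23, 2.26-fold, adjusted p = 0.00297 in limma).

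The effect of P/I on Sik1 in CHX-treated cells was 0.59 (95% interval 0.08 to 1.09, adjusted p = 0.114 in limma), and did not pass the threshold. Without the P/I-stimulated CHX-treated replicate 3 it was 0.89, with an adjusted p of 0.00549, and without all arrays of replicate 3 it was 0.97 (adjusted p = 0.0290). The value also went the other way, to 0.23 without all arrays of replicate 1 (adjusted p = 0.565). It also passed with the replicate number as a block (adjusted p = 0.0535), with probe sets under a mean of log2 5 left out (0.0874) and with a variance trend on intensity (0.0895).

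**Figure D2:**
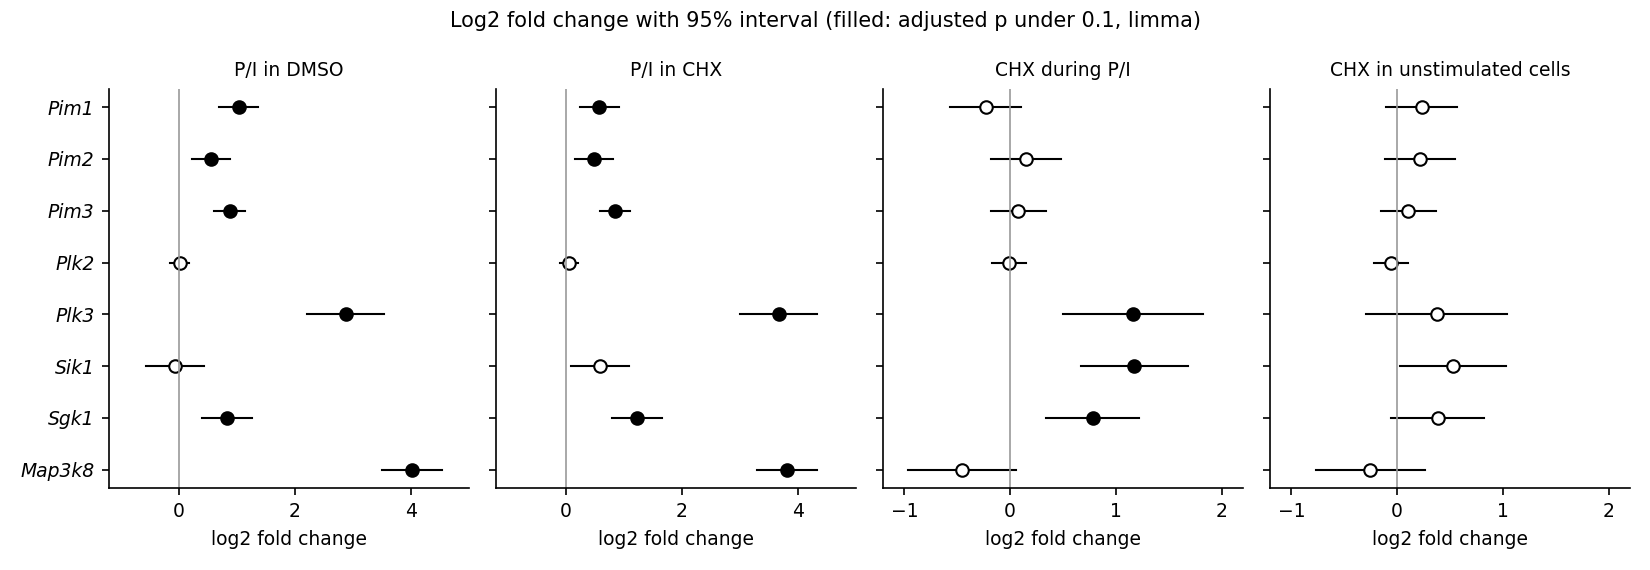
Log2 fold change of the 8 kinase mRNAs (horizontal axes) with 95% intervals from limma in the comparisons of the 4 groups, filled where the adjusted p was under 0.1. Plk3, Sik1 and Sgk1 are the filled points for CHX during P/I, at 1.16, 1.17 and 0.78.

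For CHX during P/I, then, 3 of the 8 kinases, Plk3, Sik1 and Sgk1, were called higher and 0 lower. Over all probe sets tested, 13.2% were called higher and 12% lower. The median log2 difference over the 8 genes was 0.11, beside 0.0091 over all probe sets tested. For the 5 not called, limma's unadjusted p was not under 0.05 in the lower direction for any, and the unmoderated test called 0 lower as well. A primary response gene is here one that was called higher with P/I and whose mean in P/I-stimulated cells was no lower with CHX. Pim2, Pim3, Plk3 and Sgk1, 4 of the 8 kinases, met that definition, as did 2.27% of all probe sets tested, or 532 of the 2118 called higher with P/I. The 8 were chosen as inducible, so the share of all probe sets is not a like base for them. The Pim2 and Pim3 differences with CHX were not called (0.15 and 0.08, adjusted p = 0.629 and 0.783 in limma). A secondary response gene is one that P/I raised and that CHX lowered in P/I-stimulated cells at the same threshold. That held for 0 of the 8 kinases and for 4.79% of all probe sets, or 1121 of the 2118 called higher with P/I. Pim1 and Map3k8 met neither definition, since their lower means with CHX did not pass the test. These definitions use P/I-stimulated DMSO-treated arrays on both sides, so their 2 comparisons are not independent.

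With P/I in CHX-treated cells, the same 6 kinases as in DMSO-treated cells were called higher and 0 lower, where 10.2% and 11.6% of all probe sets were called. The median over the 8 genes was 0.72, beside 0.02 over all probe sets tested. Between P/I-stimulated CHX-treated cells and unstimulated DMSO-treated cells, 7 of the 8 were called higher and the other, Plk2, was not called. Over all probe sets, 12% were called higher there and 10.7% lower. In that comparison Sik1 was 2.16-fold higher (adjusted p = 0.00465) and Sgk1 3.05-fold higher (adjusted p = 0.000143 in limma).

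**Figure D3:**
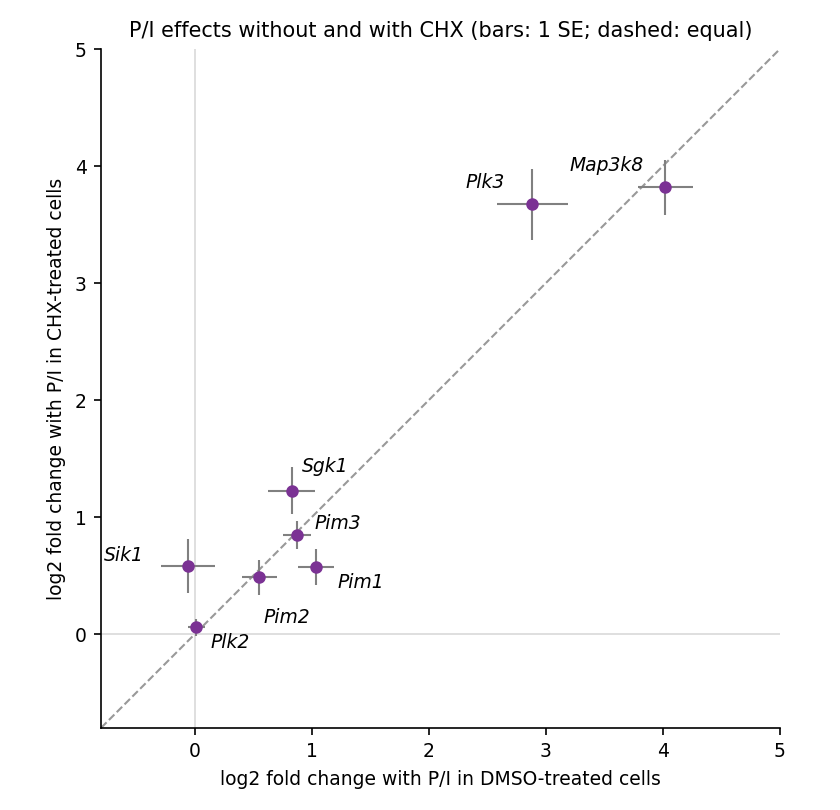
Log2 fold change with P/I in DMSO-treated cells (horizontal axis) against that in CHX-treated cells (vertical axis), 1 point per kinase with bars of 1 SE, and a dashed line where both are equal. Map3k8 (4.02 and 3.82) and Pim3 (0.88 and 0.85) lie near the line, Plk3 (2.89 and 3.68) above it and Pim1 (1.04 and 0.58) below it.

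The difference between the P/I effects with and without CHX, the interaction, passed the threshold for 0 of the 8 kinases in either direction. Over all probe sets tested, 6.04% were called with a higher and 7.62% with a lower P/I effect in CHX. Limma's unadjusted p was under 0.05 for 0 of the 8, and the unmoderated test called 0. The largest values were 0.79 for Plk3 (95% interval -0.15 to 1.73, adjusted p = 0.327 in limma) and 0.65 for Sik1 (-0.07 to 1.36, adjusted p = 0.282). Pim1 had -0.46 (-0.94 to 0.01, adjusted p = 0.245). These intervals are wide, so the 2 arms were not shown to differ or to act alike for these genes. Leaving out arrays brought 4 of them past the threshold. Sik1 had 0.95 without the P/I-stimulated CHX-treated replicate 3 (adjusted p = 0.0289). Pim1 had -0.64 without replicate 1 of the same group (adjusted p = 0.0486) and -0.65 without all arrays of replicate 1 (adjusted p = 0.0588). Sgk1 had 0.65 without the P/I-stimulated DMSO-treated replicate 2 (adjusted p = 0.0825), and Plk3 0.81 without the arrays of replicate 1 (adjusted p = 0.0242). Other arrays left out made the same values smaller. Without all arrays of replicate 1 the interaction was 0.19 for Sik1 and 0.0281 for Sgk1. It was 0.40 for Plk3 without the unstimulated CHX-treated replicate 1, and -0.25 for Pim1 without all arrays of replicate 3.

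CHX alone, in unstimulated cells, gave 0 calls among the 8 kinases in either direction, and calls for 0.0299% of all probe sets higher and 0% lower. Limma's unadjusted p was under 0.05 for 1 of the 8, Sik1, and the unmoderated test called 0. Sik1 had a log2 difference of 0.53 (95% interval 0.02 to 1.03, adjusted p = 0.722 in limma). Sgk1 had 0.38 (-0.05 to 0.82) and Pim2 0.21 (-0.12 to 0.55). In these 3 genes every CHX-treated array was above every DMSO-treated array, as for 7.06% of all probe sets. Every array was below in 0 of the 8 genes and in 9.15% of all probe sets. The groups of the other 5 kinases overlapped, with differences from -0.25 for Map3k8 to 0.37 for Plk3. Unstimulated cells may have been in CHX for less time than P/I-stimulated cells. Between the CHX effects with and without P/I, stimulation and time in CHX therefore cannot be told apart.

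The order of the 4 group levels is described by which neighbouring groups passed the threshold. The kinases were not tested against each other, and neighbours that did not pass are not shown to be equal. Map3k8 and Pim3 had both P/I-stimulated groups above both unstimulated groups, with the step between them past the threshold (adjusted p = 1.42e-06 and 0.000819 in limma) and no other neighbours told apart. For Plk3, P/I with CHX was above P/I alone (adjusted p = 0.0164 in limma), and P/I alone was above both unstimulated groups (adjusted p = 0.000146). For Sgk1, P/I with CHX was above the rest (adjusted p = 0.0147), and for Pim1 both stimulated groups were above both unstimulated ones (adjusted p = 0.0222). The Plk3 step with CHX, the Sgk1 step and the Pim1 step did not pass in some of the fits that left out arrays, as given above. No neighbouring groups of Pim2, Plk2 or Sik1 passed the threshold, although Pim2 was called with P/I in both arms.

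Over the 12 arrays, which share the 4 groups, Pearson's r is a description of these patterns. Pim3 and Plk3 had r = 0.96, Pim3 and Map3k8 0.94, and Sik1 and Map3k8 0.14. Plk2, with group means only between log2 4.82 and 4.89, had at most 0.38 with any of the others. Among the 1906 genes whose group means span at least 1 log2 unit, the one most like Plk3 was the transcription factor gene Egr2 (r = 0.996), with group means of log2 6.08 and 10.40 without and with P/I in DMSO and of 6.60 and 11.79 in CHX. Gas2 and Phf19 followed, both at 0.99. Most like Map3k8 were Cd274, which codes for the checkpoint ligand PD-L1, Prrg4, and Zap70, a kinase of the T cell receptor (r = 0.99 for each). Those most like Pim3 were Lcp2, an adaptor of the T cell receptor, Stard3 and the NF-κB subunit gene Nfkb2 (0.98, 0.98 and 0.97). Ksr1, a scaffold of the ERK cascade, Eea1 and Tnfsf14 were nearest to Pim1 (0.94, 0.94 and 0.93). Usp36, Zfr and Rab10os were nearest to Pim2 (0.92, 0.91 and 0.91). Sgk1 was most like Apold1, Tmem19 and Nabp1 (0.95, 0.94 and 0.94).

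Sik1 was most like Socs3, an inhibitor of cytokine signalling (r = 0.89), the histone gene H1f1 (0.89) and Msl3l2 (0.88). Socs3 had group means of log2 6.46 and 6.17 without and with P/I in DMSO, and of 6.79 and 8.47 in CHX. For Plk2 the highest was Bcam at 0.54, with Eml1 and Adamts9 at 0.53. The Plk2 group means lay only between log2 4.82 and 4.89, and the candidates were chosen for a wide span. Low values were thus built in, and these genes are not shown to share a pattern with Plk2.

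The families of these kinases moved in both directions. The 38 measured relatives were 3 Polo-like, 15 AMPK-related, 6 AGC and 14 MAP3K genes. The AMPK-related genes here include Stk11, their activator. With P/I in DMSO-treated cells 7 of the 38 were called higher and 5 lower, with a median of -0.0088 (9.05% and 8.42% of all probe sets were called). Among the other Polo-like kinases Plk1, which drives mitosis, fell by 1.30 (adjusted p = 0.00839 in limma), and was 1.18 higher with CHX during P/I (adjusted p = 0.0103). Plk4, the centriole kinase, had -0.20 and was 0.40 higher with CHX during P/I (adjusted p = 0.0847), while Plk5 was not called in either. Of the AMPK-related genes 3 were higher and 1, Stk11, was lower with P/I (median 0.03). The salt-inducible relative Sik3 rose by 0.95 with P/I and by 0.86 in CHX-treated cells (adjusted p = 0.000505 and 0.000936). Sik2 had 0.09 with P/I and was 0.72 higher with CHX during P/I (adjusted p = 0.0004 in limma). Prkaa1, a catalytic subunit of AMPK, rose by 0.56, and Stk11 (LKB1), the kinase that activates Sik1 and its relatives, fell by 0.57.

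Of the 6 AGC kinases 1 was higher with P/I, Pdpk1, which activates Sgk1 (0.28, adjusted p = 0.0633 in limma), and the other 5 were not called (median 0.20). With CHX during P/I, Rps6kb2 was 0.47 higher and Akt1 fell by 0.56 (adjusted p = 0.0018 and 0.0448). The 14 other MAP3K genes had 3 calls in each direction with P/I (median -0.06). Map3k5 rose by 0.85 and was -1.37 with CHX during P/I, and Map3k1 fell by 1.24 and was 1.64 higher with CHX during P/I (adjusted p = 5.12e-05 and 0.00011 for the CHX effects in limma). Map3k6 and Map3k13 fell by 0.87 and by 0.41 with P/I. With CHX during P/I, 10 of the 38 relatives were higher and 4 lower (median 0.06), where 13.2% and 12% of all probe sets were called.

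**Figure D4:**
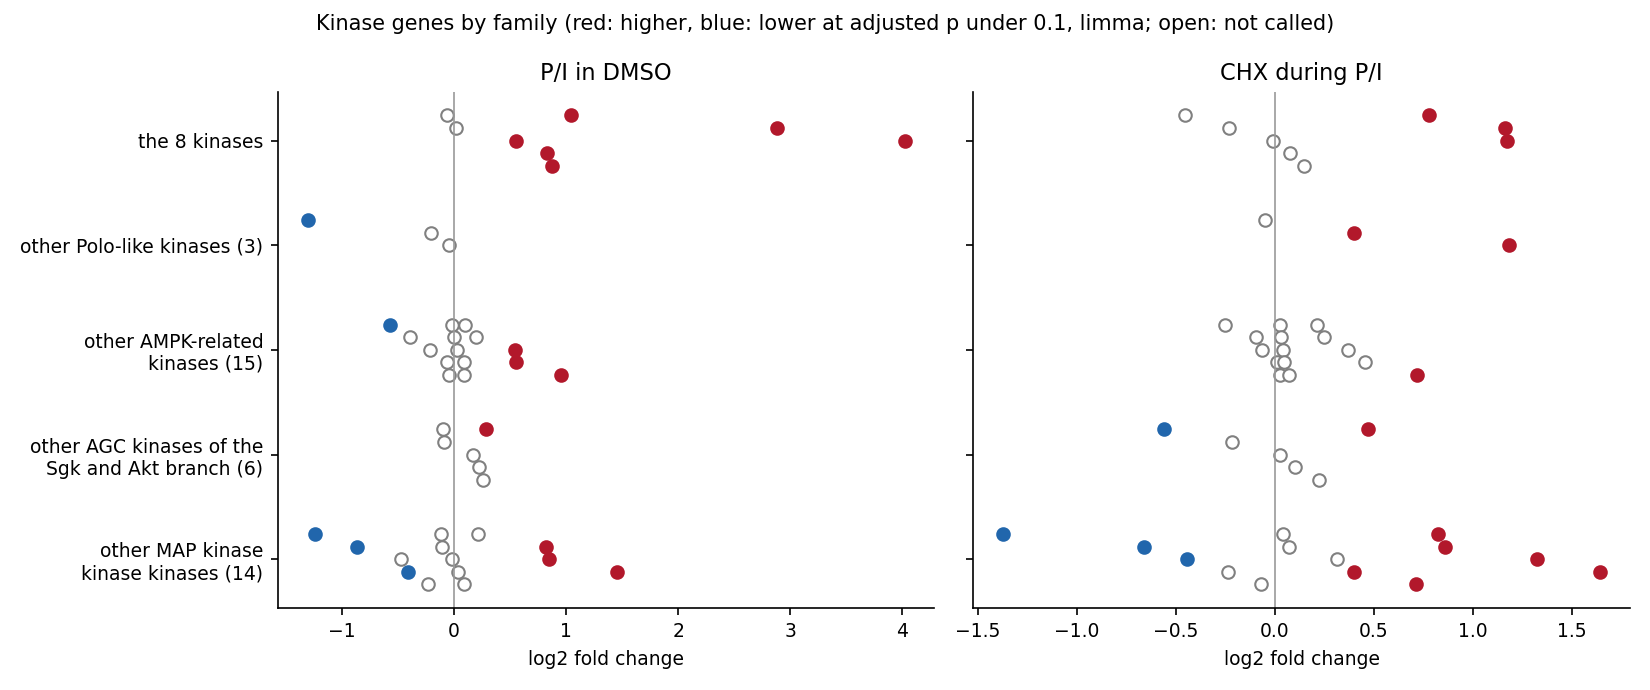
Log2 fold change (horizontal axes) of the 8 kinases and of 38 relatives by family, 1 circle per gene, for P/I in DMSO-treated cells and for CHX during P/I, red where called higher and blue where called lower. The 8 kinases have 6 red and 0 blue circles with P/I, and the relatives 7 red and 5 blue.

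Genes that act with these kinases were read in the same way, and 30 of 35 listed genes were measured. With P/I in DMSO-treated cells 7 were higher and 7 lower (median 0.0055), and with CHX during P/I 10 were higher and 7 lower. Over all probe sets these shares were 9.05% and 8.42% with P/I, and 13.2% and 12% with CHX during P/I. In the Map3k8 cascade, Tnip2 (ABIN-2), which holds and stabilizes the Map3k8 protein, rose by 0.71 with P/I and was -0.88 with CHX during P/I (adjusted p = 0.00466 and 0.000775 in limma). Map2k1, the MAP kinase kinase that Map3k8 phosphorylates, fell by 0.93 with P/I, Map2k4 rose by 0.30, and Map2k2 had 0.05 and was not called.

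In the cytokine signals upstream of the Pim genes, 2 of 6 measured genes were higher with P/I and the other 4 were not called. Jak2 rose by 3.16 and Stat5a by 0.74 (adjusted p = 1.43e-07 and 0.000491 in limma). Both were lower with CHX during P/I, by -3.63 and -1.17 (adjusted p = 4.59e-08 and 1.28e-05). Tyk2 had -0.10 with P/I and was 1.10 higher with CHX during P/I. Of 6 measured Pim substrates 1 was higher and 2 lower with P/I. The phosphatase gene Cdc25c fell by 0.92 and Bad, a cell death regulator, by 0.49, and Eif4ebp1, a repressor of translation, rose by 0.45. Myc had 0.61 (adjusted p = 0.189) and was 1.47 higher with CHX during P/I (adjusted p = 0.0019 in limma).

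Of the 7 substrates of the salt-inducible kinases 2 were higher and 2 lower with P/I. Hdac9 rose by 1.16, and Hdac5 fell by 1.19 and the CREB coactivator gene Crtc3 by 0.75 (adjusted p = 0.00146, 0.000214 and 0.00119 in limma). Of 7 genes that activate Sgk1 or are its substrates 2 were lower with P/I and the other 5 were not called. Foxo3, a transcription factor that Sgk1 and Akt inactivate, fell by 0.93 and was 0.92 higher with CHX during P/I. Ndrg1, a standard readout substrate of Sgk1, had -0.61 (adjusted p = 0.209) and was 1.08 higher with CHX during P/I (adjusted p = 0.0154 in limma).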

How the data were processed

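Total RNA of EL-4 cells was hybridised to 12 Mouse Gene 1.0ST arrays. According to the methods and the submitters' processing notes, the authors background-corrected, quantile-normalised and summarised the probes by RMA in Partek (versions not given in the sources used here) and deposited log2 values, which were used without further scaling. Probe sets were named from the platform annotation. Of 35399 probe sets, 21789 had 1 symbol, 1621 several and 11989 none, and the 23410 with a symbol were tested. Listed genes with no probe set of 1 symbol were not analysed here.

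A mean per group was fitted with limma 3.58.1 in R 4.3.3 (8 residual and 3.63 prior degrees of freedom, two-sided, Benjamini-Hochberg, called at an adjusted p under 0.1), after it was tested on simulated data. The methods name an ANOVA, which was taken here as the same group means without moderation and is called the unmoderated test. Intervals are at 95%.

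The 8 kinases and the gene lists were chosen with earlier results of these data known, and the 8 motifs after values were seen. Named genes were the 8 kinases, up to 4 genes per list with the smallest p for P/I in DMSO or CHX during P/I, and the 3 candidates most correlated with each kinase. Alternatives were a replicate block, median centring, quantile normalisation, a limit on low means, all probe sets, a variance trend, the ANOVA, a stricter threshold, only the groups compared, averaged probe sets, and leaving out arrays.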

Additional observations from a re-analysis of the deposited data

How the results depend on the processing

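The 40 effects of the 8 kinases (5 comparisons) were recomputed under 25 alternatives, 15 of which leave out arrays. The interaction was not recomputed in the fit of only the groups compared. Of the 987 values obtained, 958 kept their direction or lack of a call, 16 lost a call, 13 gained one and 0 turned a called direction, and Plk2 falls out under a mean limit of log2 5. When arrays were left out, the number of the 8 kinases called higher with P/I in DMSO-treated cells was 4 to 6, and that called higher with CHX during P/I was 1 to 3. The number lower with CHX during P/I was 0 to 1, that raised by P/I in CHX-treated cells 5 to 6, and that with a higher or a lower interaction 0 to 1. Only 1 was called higher with CHX during P/I, Sik1, without the arrays of replicate 3. The share of all probe sets called was not computed under the alternatives, so these counts cannot be set beside such a share. Counts in the lists of relatives and of upstream genes, partners and substrates moved by over 1.5 times in 41 of 496 recomputations. With P/I in DMSO-treated cells, the relatives called higher were 4 to 8 and lower 2 to 9, and the upstream genes, partners and substrates 3 to 8 and 4 to 13. With CHX during P/I the relatives called higher were 6 to 15 and lower 2 to 6, and the upstream genes, partners and substrates 6 to 14 and 5 to 8.

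The labels number the replicates alike in each group. Deviations from the group means correlated at 0.06 to 0.75 over the 18 pairs of same-numbered arrays and at -0.58 to 0.31 over 36 other pairs of different groups. The medians of these correlations were 0.35 and -0.26, and 12 of 12 arrays correlated best with an array of their own number. Since not every pair was above 0.1, the main fit has no replicate term. Its standard errors and intervals thus take no account of what same-numbered arrays may share. With the replicate block, 6 of the 8 kinases were higher with P/I in DMSO, 3 with CHX during P/I and 7 with P/I in CHX, where Sik1 was added at 0.59 (adjusted p = 0.0535 in limma). It changed no other call of the 8 kinases. The share of all probe sets called with the block was not computed. The upstream genes, partners and substrates lower with P/I in DMSO were 11 with the block, in place of 7.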
